A study of Rattus norvegicus with 20 samples.

Results

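The genes described here encode the subunits of the proteasome and its activators. They were chosen by name: a probe counted as a member where the array's gene name began with Psma, Psmb, Psmc, Psmd or Psme followed by a digit, with 1 immunoproteasome subunit left out by the rule. The names matched 49 probes for 41 gene names. One of these, Psmc3ip, encodes a cofactor of meiotic recombination and no subunit, so it was kept out of all values. The remaining 40 genes, on 48 probes, comprised 8 of the 20S alpha class, 9 of the 20S beta class, 6 ATPases, 13 non-ATPase genes and 4 activators. All 40 were among the 30509 genes tested. Psma3l is a near copy of Psma3, and their probes may not tell the transcripts apart.

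The study exposed primary cultures of neonatal rat heart cells, grown for a day in DMEM, to diclofenac, a painkiller of the NSAID class that blocks cyclooxygenases. It used 3 concentrations, given only as 1, 1/5 and 1/25 of a reference whose molar value is not stated in the sources used here, each for 6 h and 24 h. Concentration 1 is called full concentration here. Total RNA was amplified, labelled with Cy3 and hybridised to 1-colour Agilent arrays of 60-base probes, 1 sample per array. The 20 arrays form 7 groups: 3 arrays for each concentration and time, and 2 arrays of untreated cells, for which the series text gives 3. The labels name no strain, allele or vehicle that differs between the groups. They do not give the time at which the untreated cells were taken, so wherever untreated cells are the reference, the drug and the hours in culture cannot be told apart. They also do not say that the arrays of a group came from separate cultures or animals, so each p-value reflects only array-to-array spread, which may be technical. In such bulk RNA, fewer cells of a type and less RNA per cell cannot be told apart.

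The proteasome degrades proteins that carry ubiquitin chains. Its 20S core is a barrel of stacked rings: alpha subunits form the outer rings and the gate, and beta subunits form the inner rings, where a few of them carry the proteolytic sites. The 19S cap holds ATPases, which unfold the substrate and open the gate, and non-ATPase subunits, which bind and process ubiquitin chains. Other activators can take the place of the cap. In heart muscle this system removes worn or misfolded contractile and membrane proteins, and subunit genes can be induced together through the transcription factor encoded by Nfe2l1.

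The probes on which the description turns are shown first, because a microarray reads a gene only at its probe and the results below depend on where a probe lies and on how bright it is. They are written 5′ to 3′ as in the deposited files, with G and C in capitals to show the GC content that was examined, and their positions are those of the files, on the rat build rn3. A position wider than 60 bases means that the probe is listed over more than 1 stretch of the genome. Each of these 60-base sequences has at least 1 reading frame free of stop codons. Psmb5 (chr15:32705834-32705893, 53.3% GC) encodes a catalytic subunit. Psmd10 (chrX:128864238-128864297, 45% GC) and Psmd13 (chr1:201198026-201198322, 45% GC) lay at opposite ends of the members at 24 h of full concentration. Psmc4 is read by an upstream probe (chr1:83230021-83230221, 41.7% GC) and a downstream probe (chr1:83229426-83229648, 45% GC) of the same transcript. Psmd2 and Psmd7 are shown with upstream probes (chr11:82537394-82538679, 45% GC, and chr19:37461057-37461674, 35% GC), and Psmd7 also with its middle probe (chr19:37457873-37457932, 51.7% GC).
Psmb5: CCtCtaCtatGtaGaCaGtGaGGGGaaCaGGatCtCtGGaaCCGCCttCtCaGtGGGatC
Psmd10: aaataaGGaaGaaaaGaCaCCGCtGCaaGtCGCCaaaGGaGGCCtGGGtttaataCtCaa
Psmd13: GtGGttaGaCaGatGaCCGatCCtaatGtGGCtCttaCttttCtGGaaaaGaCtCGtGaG
Psmc4 upstream: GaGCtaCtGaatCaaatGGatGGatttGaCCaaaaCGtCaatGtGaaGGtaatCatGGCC
Psmc4 downstream: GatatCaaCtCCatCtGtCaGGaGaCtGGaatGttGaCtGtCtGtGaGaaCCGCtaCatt
Psmd2 upstream: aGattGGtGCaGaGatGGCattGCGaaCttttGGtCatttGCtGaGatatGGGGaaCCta
Psmd7 upstream: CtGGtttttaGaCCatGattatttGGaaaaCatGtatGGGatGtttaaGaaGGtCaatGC
Psmd7 middle: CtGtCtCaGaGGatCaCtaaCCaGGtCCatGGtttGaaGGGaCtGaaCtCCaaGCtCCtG

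Values below are log2 signals relative to the 75th percentile of each array, so 0 marks a spot as bright as that percentile, and a difference of 1 is a doubling. They are compared between arrays for 1 gene and never between genes, since probes bind with different strength. Each array had 43379 non-control spots. Between 64.1% and 88.2% of them were well above background (median 83.7%), and between 4.93% and 10.8% were saturated, that is, as bright as the scanner reads. Fewer than 80% of spots were well above background on 4 arrays: the second array of 1/25 at 6 h (75.1%), the first and the third of 1/5 at 24 h (76.5% and 64.1%) and the first of 1/25 at 24 h (72.4%). Of the 40 members, 33 were well above background on every array, and none was below it on all arrays of a group. Cardiomyocyte markers were present in every group: all 11, such as Tnnt2 and Myh6, were well above background on each array. All 8 fibroblast markers were too, except in 1/5 at 24 h, where 4 were.

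With the groups alone in the model, no subunit gene passed the test in any comparison. With limma over all genes and Benjamini-Hochberg adjustment at 0.05, the count of called members was 0 of 40 against untreated cells for full concentration, 1/5 and 1/25 at 6 h, where 0.00656%, 0% and 0% of all genes were called. It was also 0 of 40 for the 3 concentrations at 24 h, where 0.00328%, 0.184% and 0.00328% of all genes were called. At an unadjusted p of 0.05, 0 members passed at 6 h for each concentration (1.48%, 1.09% and 1.16% of all genes). At 24 h, 2, 16 and 2 members passed it for full concentration, 1/5 and 1/25 (4.56%, 30.4% and 13.4% of all genes). At 1/5 these 16 are 40% of the members, the arrays are the most scattered of the series, and the smallest adjusted p of limma there was 0.129. This count depends on 1 array: without the second array of 1/5 at 24 h, 22 of 40 members were called against untreated cells (35.3% of all genes in the same fit), and without the second array of 1/25 at 24 h, 1 member, Psmd13, was called in that group (2.07% of all genes). The other arrays of that group read Psmd13 below the lowest value well above background on them. With the slide as a random block, 17 of 40 members were called for 1/5 at 24 h (34.4% of all genes). These calls go with a general rise in calls over the array. Data were also simulated with a spread for each gene pooled over the 7 groups and equal on every array. There limma recovered 0 of 50 genes with a log2 change of 1 at full concentration for 24 h. It recovered 17 of 50 with a change of 2 and 35 of 50 with a change of 4. The real arrays differ in their spread, so this shows only that a doubling was not detected under that setting.

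At 6 h the subunit genes lay close to their untreated level. The median change over the 40 members was -0.00 at full concentration, 0.03 at 1/5 and 0.05 at 1/25, against 0.01, 0.02 and -0.07 over all genes. The median size of a change, taken without its sign, was 0.080, 0.146 and 0.124 for members and 0.205, 0.225 and 0.232 for all genes. At full concentration for 6 h the members reached from -0.50 for Psmd1, a scaffold of the cap's base, to 0.59 for Psmd5, a chaperone of base assembly. Groups that did not overlap were few. At full concentration Psmd11 and Psme2 were higher on every array than on both untreated arrays and Psmc2 and Psmd1 lower, that is 2 genes each way, where 14.1% and 11.6% of all genes did so. At 1/5, 4 members were higher on every array and 0 lower (11% and 9.80% of all genes). At 1/25 it was 3 members and 1 (4.40% and 6.49%).

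At 24 h the members spread in both directions, and they did so differently from array to array. The median change against untreated cells was -0.06 at full concentration, -0.04 at 1/5 and 0.27 at 1/25, against -0.10, -0.12 and -0.13 over all genes. Without the third array of 1/5 the members' median in that group was 0.29. The median size of a change was 0.212, 1.035 and 0.487 for members and 0.373, 0.850 and 0.569 for all genes. The number of members above their untreated level was 18, 18 and 28 of 40. Psmd13 was the lowest member at each of the 3 concentrations, at -2.84, -2.89 and -3.31. Its probe was well above background on 14 of the 20 arrays. At each concentration its lowest reading at 24 h was below the lowest value well above background on that array. The size of these falls thus rests in part on readings not well above background.

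**Figure D1:**
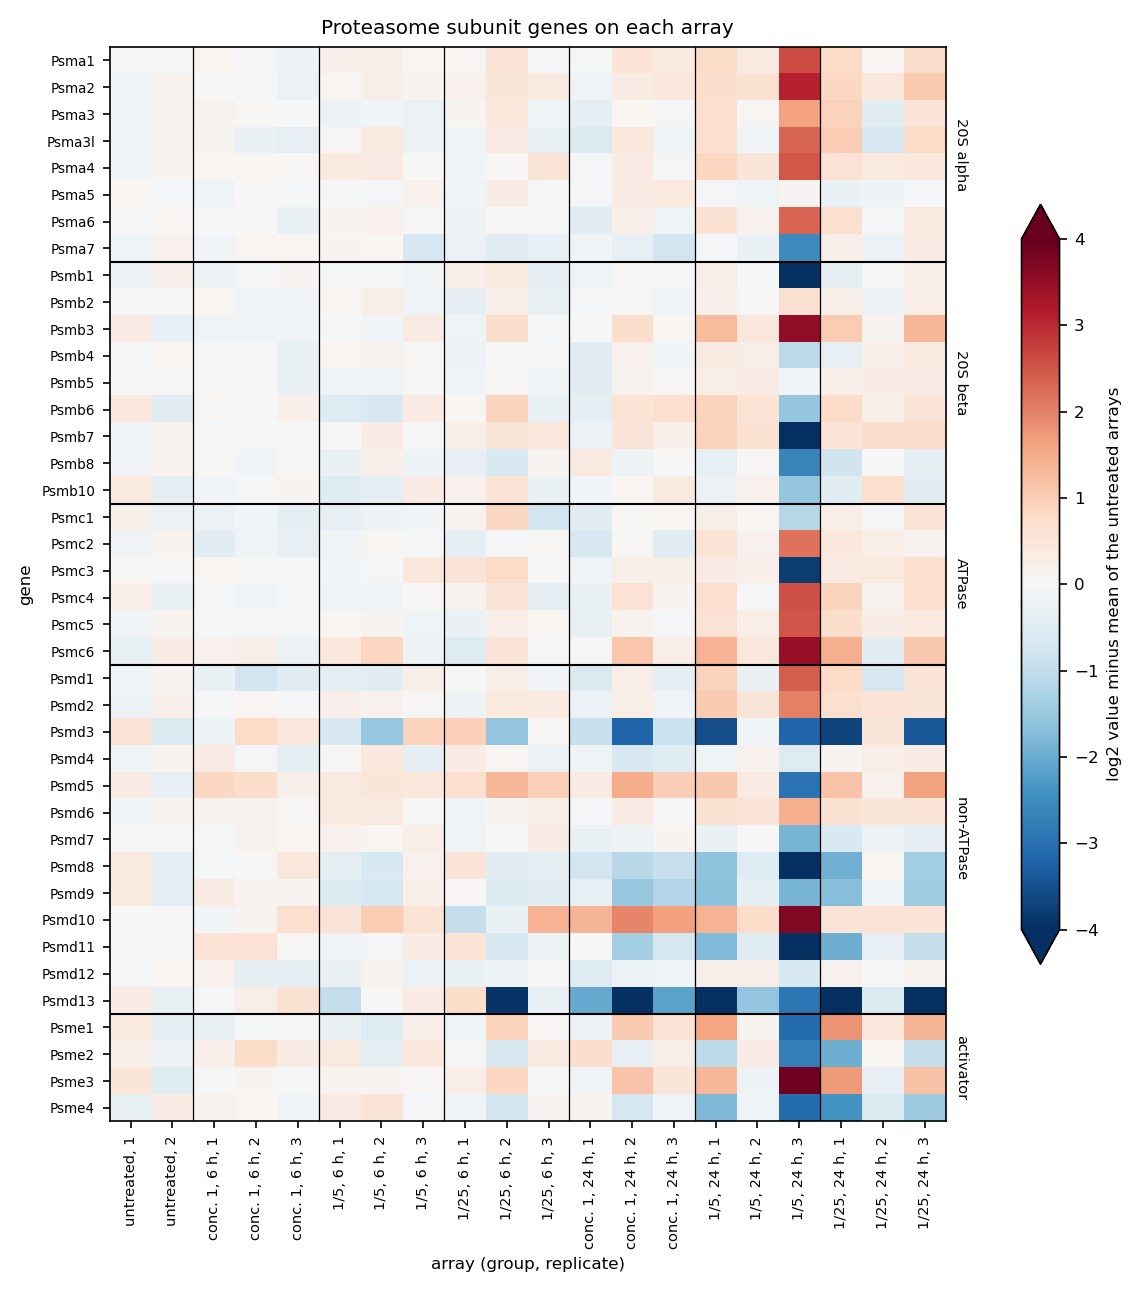
Log2 signal of each of the 40 subunit genes (rows, by class) on each of the 20 arrays (columns, by group), as the difference from the mean of the untreated arrays; values beyond the colour scale take its end colour. Most values at 6 h are near 0, except on the second array of 1/25, and the third array of 1/5 at 24 h reaches from -5.57 for Psmd8 to 3.90 for Psme3.

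The alpha subunits form the outer rings of the core and the gate through which substrates enter. Their median change was -0.06, 0.09 and 0.09 at full concentration, 1/5 and 1/25 for 6 h, and -0.02, 1.00 and 0.36 at 24 h. At 1/5 for 24 h, 6 of 8 alpha genes were above their untreated level, and at 1/25 it was 7 of 8. Psma2 had the smallest p of the class in the F test over the 7 groups (adjusted p = 0.238, limma). Psma2 read 0.62 and 0.89 in untreated cells; 0.74, 0.69 and 0.52 at full concentration, 0.85, 0.99 and 0.88 at 1/5 and 0.94, 1.24 and 1.11 at 1/25 for 6 h. At 24 h Psma2 read 0.59, 1.04 and 1.22 at full concentration, 1.45, 1.38 and 3.82 at 1/5, and 1.60, 1.18 and 1.79 at 1/25. All arrays of 1/25 at both times and of 1/5 at 24 h were above both untreated arrays, and the third of 1/5 at 24 h stood far above the rest. The change at 1/5 for 24 h was 1.46 ± 0.53 (SE, n = 3 against 2; limma adjusted p = 0.129). The exceptions in the class were Psma5, at -0.03 and -0.18, and Psma7, at -0.97 and 0.10, for 1/5 and 1/25. The class median at 1/5 for 24 h rests on 1 array: without the third array it was 0.38. That array has the lowest signal of the series. With all arrays kept, the class median was 0.47 after quantile normalization and 0.78 with probes saturated on any array left out.

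Psma4 could not be read as a change at all. It was saturated on all 20 arrays, where its processed signal lay between 58349 and 76014, a range of 1.30-fold, while its scaled values ran from 1.69 to 4.36 because the 75th percentiles they are divided by ran from 3165 to 21937. Of the 40 members, 13 were saturated on at least 1 array, against 18.1% of all genes. Psmc2 and Psmd2 were saturated on 19 arrays each, Psmb4 on 17, Psma6 and Psmd6 on 13 and Psmb7 on 11. At 1/5 for 24 h the 29 members without a saturated spot in either group had a median change of -0.28, with 10 above 0, beside -0.27 for all unsaturated genes. The 11 members with one had a median of 0.95, with 8 above 0. At 1/25 for 24 h the 29 unsaturated members had a median of 0.22 with 18 above 0, beside -0.30 for all unsaturated genes, and the 11 others had 0.34.

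The beta subunits form the inner rings. Psmb5, Psmb6 and Psmb7 carry the chymotrypsin-like, caspase-like and trypsin-like activities, and Psmb8 and Psmb10 are the inducible counterparts of Psmb5 and Psmb7 in the immunoproteasome. The median change of the 9 beta genes was -0.04, -0.08 and 0.09 for full concentration, 1/5 and 1/25 at 6 h and 0.05, -0.16 and 0.09 at 24 h. Without the third array of 1/5 the value of -0.16 became 0.29. The class included Psmb1, at -1.79 in 1/5 for 24 h, and Psmb3, at 1.75 in the same group. Neither passed the test.

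Psmb5 was saturated on 7 of the 20 arrays, which limits how far its values can spread. It read 1.89 and 1.96 in untreated cells; 1.94, 1.93 and 1.67 at full concentration, 1.76, 1.74 and 1.91 at 1/5 and 1.77, 1.98 and 1.78 at 1/25 for 6 h. At 24 h Psmb5 read 1.49, 2.07 and 1.97 at full concentration, 2.20, 2.25 and 1.83 at 1/5, and 2.12, 2.21 and 2.25 at 1/25. Only 1/25 at 24 h lay above both untreated arrays on every array, and that difference of 0.27 was within its SE of 0.28.

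Psmb6 read -0.78 and -1.68 in untreated cells; -1.19, -1.25 and -1.02 at full concentration, -1.73, -1.84 and -0.89 at 1/5 and -1.16, -0.36 and -1.50 at 1/25 for 6 h. At 24 h Psmb6 read -1.60, -0.68 and -0.57 at full concentration, -0.30, -0.69 and -2.77 at 1/5, and -0.48, -0.99 and -0.71 at 1/25. Each treated group overlapped the untreated pair, which itself differed by almost a doubling, and the changes lay between -0.26 and 0.50 with an SE of 0.60. Psmb7 was saturated on 11 arrays, both untreated ones included, and is given without a fold. Psmb7 read 1.52 and 1.81 in untreated cells; 1.61, 1.68 and 1.70 at full concentration, 1.64, 1.99 and 1.66 at 1/5 and 1.92, 2.16 and 2.12 at 1/25 for 6 h. At 24 h Psmb7 read 1.45, 2.18 and 1.87 at full concentration, 2.59, 2.28 and -2.38 at 1/5, and 2.23, 2.37 and 2.38 at 1/25. Both 1/25 groups were above both untreated arrays, and the third array of 1/5 at 24 h was far below every other array while the other two of that group were above the untreated pair.

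The inducible subunits showed no separation of treated from untreated arrays. Psmb8 read -1.04 and -0.78 in untreated cells; -0.85, -1.01 and -0.85 at full concentration, -1.16, -0.71 and -1.11 at 1/5 and -1.23, -1.51 and -0.80 at 1/25 for 6 h. At 24 h Psmb8 read -0.55, -1.11 and -0.91 at full concentration, -1.24, -0.85 and -3.60 at 1/5, and -1.70, -0.89 and -1.26 at 1/25. Every treated group overlapped the untreated pair, and the lowest value was again the third array of 1/5 at 24 h. Psmb10 read 0.02 and -0.78 in untreated cells; -0.49, -0.46 and -0.26 at full concentration, -0.87, -0.75 and -0.04 at 1/5 and -0.21, 0.18 and -0.64 at 1/25 for 6 h. At 24 h Psmb10 read -0.47, -0.31 and -0.02 at full concentration, -0.60, -0.22 and -1.93 at 1/5, and -0.84, 0.27 and -0.79 at 1/25. All groups overlapped here too, with changes between -0.54 and 0.15 (SE 0.49).

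Psmb3, a structural beta subunit, had the smallest p of its class over the 7 groups (adjusted p = 0.235, limma F test). It read 0.30 and -0.39 in untreated cells; -0.22, -0.18 and -0.16 at full concentration, -0.05, -0.16 and 0.27 at 1/5 and -0.23, 0.68 and -0.12 at 1/25 for 6 h. At 24 h Psmb3 read -0.01, 0.67 and 0.02 at full concentration, 1.24, 0.41 and 3.49 at 1/5, and 0.98, 0.09 and 1.29 at 1/25. Only 1/5 at 24 h was above both untreated arrays on every array, by 1.75 ± 0.64 (SE; limma adjusted p = 0.129), and its arrays ran from 0.41, near the higher untreated array, to 3.49.

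The ATPases form the ring of the cap that unfolds substrates. Their median change was -0.07, -0.02 and 0.06 at 6 h and 0.01, 1.02 and 0.46 at 24 h for full concentration, 1/5 and 1/25. At 1/25 for 24 h all 6 were above their untreated level, by 0.24 (Psmc1) to 0.69 (Psmc6), and none passed the test. Among these 6 are Psmc2 and Psmc5, saturated on 19 and 6 arrays. At 1/5 for 24 h they ran from -1.09 for Psmc3 to 1.76 for Psmc6, and without the third array the class median was 0.34. Psmc4 and Psmc6 stand here by their downstream probes. The upstream probe of Psmc4 changed by 0.12 at 1/25 and -0.78 at 1/5 for 24 h, and that of Psmc6 by 0.52 and 1.63. The direction at 1/5 also turned with the scaling: after quantile normalization the median was -0.06. With probes saturated on any array left out it was 0.40. Psmc2, with the smallest F-test p of the class (adjusted p = 0.244, limma), was saturated on 19 arrays and is given without a fold. It read 2.11 and 2.41 in untreated cells; 1.84, 2.09 and 1.95 at full concentration, 2.13, 2.31 and 2.23 at 1/5 and 1.91, 2.21 and 2.32 at 1/25 for 6 h. At 24 h Psmc2 read 1.62, 2.32 and 1.85 at full concentration, 2.81, 2.43 and 4.42 at 1/5, and 2.70, 2.53 and 2.41 at 1/25. A saturated spot sits at the scanner's ceiling, so its scaled value moves with the percentile of the array.

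The non-ATPase genes were the most divided class. They include the scaffolds of the cap's base (Psmd1, Psmd2), a ubiquitin receptor (Psmd4), structural subunits of the lid (Psmd3, Psmd6, Psmd7, Psmd8, Psmd11, Psmd12, Psmd13) and chaperones that assemble the base and leave it (Psmd5, Psmd9, Psmd10). Their median change was 0.13, 0.02 and 0.03 at 6 h and -0.30, -0.52 and 0.10 at 24 h for full concentration, 1/5 and 1/25. Without the third array of 1/5 the value of -0.52 became 0.00. With probes saturated on any array left out it was -1.45, where another probe stood for the gene if it had one. At full concentration, 10 of 13 were above their untreated level at 6 h and 3 of 13 at 24 h. Against untreated cells, 2 of the 40 members were higher on every array of full concentration at 24 h, where 14.1% of all genes were: Psmd5 and Psmd10. Both are chaperones, but Psmd9, also a chaperone, read 0.46, -0.71 and -0.38 there, against 1.17 and 0.42 untreated. Psmd5 was higher only narrowly, since its first array of full concentration read -2.601, against -2.605 on the first untreated array. Of the 6 members that were lower on every array (17.8% of all genes), 5 belong to the cap (Psmd3, Psmd4, Psmd8, Psmd12 and Psmd13), and the other was Psma7. These 6 genes are 15% of the members, near the share among all genes.

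**Figure D2:**
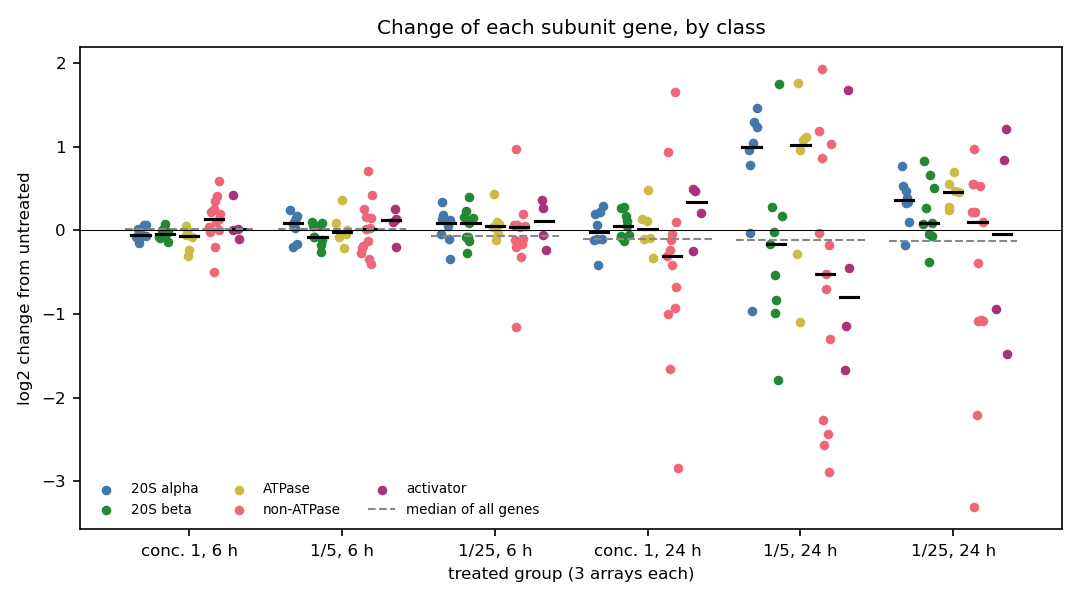
Log2 change against untreated cells for each subunit gene (points), by class, in each of the 6 treated groups, with the median of the class. The class medians stay near 0 at 6 h, and at 24 h the non-ATPase genes reach from -2.84 to 1.65 at full concentration.

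Psmd13, a structural subunit of the lid, was low in all 24 h groups. It read -1.67 and -2.28 in untreated cells; -2.04, -1.75 and -1.36 at full concentration, -2.91, -1.99 and -1.64 at 1/5 and -1.23, -5.90 and -2.25 at 1/25 for 6 h. At 24 h Psmd13 read -3.99, -6.32 and -4.12 at full concentration, -6.16, -3.56 and -4.88 at 1/5, and -6.93, -2.56 and -6.36 at 1/25. All 9 arrays at 24 h were below both untreated arrays, and at 6 h so were the first array of 1/5 and the second of 1/25. The changes of -2.84, -2.89 and -3.31 had an SE of 1.27 and adjusted p-values of 0.999, 0.143 and 0.353 (limma). Between 24 h and 6 h of full concentration the groups did not overlap, and the difference was -3.09 ± 1.14 (SE; adjusted p = 0.252). Psmd13 had the largest spread within groups of all members (SD 1.56, against a median of 0.605 for members and 0.617 for all genes), and it was well above background on 14 of 20 arrays. At 24 h, -6.32 at full concentration, -6.16 and -4.88 at 1/5, and -6.93 and -6.36 at 1/25 were not. The lowest values well above background on those arrays were -6.29, -5.82, -4.54, -5.72 and -6.25. At 6 h, -5.90 at 1/25 was below such a value of -5.78. Without the array that read -6.32, the change at full concentration for 24 h was -2.09. Without the second array of 1/25 at 24 h its change there was -4.67, with an adjusted p of 0.0493. It had the smallest F-test p of its class (adjusted p = 0.196, limma).

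Psmd10 encodes gankyrin, a chaperone of the base that also binds the retinoblastoma protein. It read 0.00 and -0.05 in untreated cells; -0.13, 0.08 and 0.63 at full concentration, 0.50, 1.00 and 0.56 at 1/5 and -0.96, -0.29 and 1.36 at 1/25 for 6 h. At 24 h Psmd10 read 1.35, 1.93 and 1.61 at full concentration, 1.36, 0.70 and 3.67 at 1/5, and 0.53, 0.53 and 0.54 at 1/25. All 9 arrays at 24 h were above both untreated arrays, and those of full concentration were above all arrays of the same concentration at 6 h. Every array of 1/5 at 6 h was above both untreated arrays too. The changes at 24 h were 1.65, 1.93 and 0.55 (SE 0.69; adjusted p = 0.999, 0.129 and 0.659, limma), and the difference between 24 h and 6 h of full concentration was 1.44 ± 0.61 (adjusted p = 0.326). Without the third array of 1/5 the value of 1.93 became 1.05 (adjusted p = 0.300). Without the second it became 2.54 (limma adjusted p = 0.0145), in a fit that called 35.3% of all genes. At full concentration the change lay between 1.5 and 1.80 when any array of that group was left out. Psmd10 was saturated on 1 array. Its probe and that of Psmd13 have the same GC content.

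Psmd1 and Psmd5 were the extremes at full concentration for 6 h. Psmd1 read 1.76 and 1.98 in untreated cells; 1.61, 1.10 and 1.41 at full concentration, 1.49, 1.45 and 2.11 at 1/5 and 1.87, 2.09 and 1.75 at 1/25 for 6 h. At 24 h Psmd1 read 1.29, 2.14 and 1.46 at full concentration, 2.81, 1.59 and 4.29 at 1/5, and 2.67, 1.21 and 2.38 at 1/25. Full concentration at 6 h was below both untreated arrays on all 3, by -0.50 ± 0.59 (SE; limma adjusted p = 1), and every other group overlapped them. Psmd5 read -2.61 and -3.28 in untreated cells; -2.10, -2.23 and -2.73 at full concentration, -2.57, -2.45 and -2.53 at 1/5 and -2.29, -1.62 and -1.99 at 1/25 for 6 h. At 24 h Psmd5 read -2.60, -1.46 and -1.95 at full concentration, -1.87, -2.61 and -5.90 at 1/5, and -1.78, -2.78 and -1.33 at 1/25. All arrays of 1/5 and 1/25 at 6 h were above both untreated arrays. Its change at 1/25 was 0.97 at both times and at full concentration for 24 h 0.94 (SE 0.80), but at 1/25 for 24 h 1 array lay within the untreated pair, and the third array of 1/5 at 24 h was the lowest of all.

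Psmd3 and Psmd8, of the lid, were singled out after their values were seen, because they were low on every array of full concentration at 24 h. Psmd3 read -1.28 and -2.37 in untreated cells and -2.72, -5.03 and -2.69 at full concentration, -5.35, -1.93 and -4.99 at 1/5, and -5.51, -1.35 and -5.22 at 1/25 for 24 h. At both lower concentrations the second array of Psmd3 lay within the untreated pair while the others were far below it. Psmd8 read -0.80 and -1.54 in untreated cells and -1.94, -2.29 and -2.08 at full concentration, -2.77, -1.69 and -6.74 at 1/5, and -3.11, -1.10 and -2.53 at 1/25 for 24 h. The second array of 1/25 again lay within the untreated pair. The changes of Psmd3 at full concentration, 1/5 and 1/25 were -1.66, -2.27 and -2.21, and those of Psmd8 were -0.94, -2.57 and -1.08. None passed the test.

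The activators can open the core without ATP. Psme1 and Psme2 encode the alpha and beta subunits of the interferon-inducible 11S ring, Psme3 its nuclear relative, and Psme4 a large single-chain activator. Their median change was 0.01, 0.12 and 0.11 at 6 h and 0.34, -0.80 and -0.05 at 24 h for full concentration, 1/5 and 1/25. Over 4 genes these medians describe little: at 1/5 for 24 h Psme3 was at 1.67 and Psme4 at -1.68, and without the third array the median was 0.10. Psme4 had the smallest F-test p of all members (adjusted p = 0.189, limma). It read 1.15 and 1.78 in untreated cells; 1.61, 1.54 and 1.30 at full concentration, 1.78, 1.99 and 1.41 at 1/5 and 1.37, 0.73 and 1.58 at 1/25 for 6 h. At 24 h Psme4 read 1.58, 0.76 and 1.31 at full concentration, -0.32, 1.30 and -1.61 at 1/5, and -0.92, 0.88 and -0.00 at 1/25. All 3 arrays of 1/25 at 24 h were below both untreated arrays, whereas the second array of 1/5 was not. The changes were -1.68 ± 0.64 at 1/5 and -1.48 ± 0.64 at 1/25 (SE; limma adjusted p = 0.129 and 0.363). Psme1 had the highest change of any member at 1/25 for 24 h, 1.21 ± 0.88 (adjusted p = 0.504), with 0.65, -0.68 and 0.23 on its arrays against -0.74 and -1.54 untreated.

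At the lower concentrations for 24 h, more members lay above the untreated pair on every array than below it. At 1/5, 12 members were higher on every array (20.7% of all genes) and 4 were lower (19.4% of all genes). Of those 12, 6 had no saturated spot in either group (Psma1, Psma2, Psmb2, Psmb3, Psmc6 and Psmd10), where 13.4% of all unsaturated genes were higher. At 1/25, 11 members were higher on every array (20% of all genes) and 4 lower (20.4%). Of those 11, 5 had no saturated spot in either group (Psma1, Psma2, Psmc3, Psmd10 and Psme1), where 11.4% of all unsaturated genes were higher. Of those 4, 3 had none (Psmd11, Psmd13 and Psme4), where 23.7% of all unsaturated genes were lower. Psmd11 and Psmd13, both of the lid, were on the lower side at both of these concentrations. Psmd6, also of the lid but saturated on 13 arrays, was on the higher side at both.

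The time course within a concentration showed no called member with the groups alone in the model. The 6 h and 24 h arrays of each concentration lie on separate slides, so time and slide cannot be told apart. From 6 h to 24 h, 0 of 40 members were called at full concentration, 1/5 and 1/25, where 0.233%, 0.0983% and 0% of all genes were called by limma. At an unadjusted p of 0.05, 3, 19 and 1 members passed (13.8%, 33.0% and 9.91% of all genes). Leaving out the second array of 1/5 at 24 h brought 26 calls at that concentration (38.3% of all genes), and the slide as a random block 25 calls (46.0% of all genes). The median change was 0.00, 0.01 and 0.24 for members and -0.09, -0.09 and -0.01 for all genes. At full concentration, 2 members (Psmb3 and Psmd10) were higher on every 24 h array than on every 6 h array (16.1% of all genes), and 6 were lower (Psma7, Psmd3, Psmd8, Psmd9, Psmd11 and Psmd13; 22.4% of all genes). At 1/5, 10 members were higher at 24 h on every array and 4 lower (15.5% and 12.8% of all genes), and at 1/25 it was 7 and 1 (10.7% and 4.80%). A saturated spot was present in 6 of those 10 and in 6 of those 7, where Psmd12 was the exception, and in the 1 lower at 1/25. Whether the time course at full concentration differed from that at 1/25 was tested by an interaction, which called 0 of 40 members and 0% of all genes, with 0 members at an unadjusted p of 0.05 (2.56% of all genes).

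The concentrations did not separate the subunit genes at 6 h. Full concentration against 1/5, 1/5 against 1/25 and full concentration against 1/25 each called 0 of 40 members (0.00656%, 0% and 0.0197% of all genes, limma) and had 0 members at an unadjusted p of 0.05 (2.80%, 2.78% and 4.79% of all genes). Groups that did not overlap were again few: 1 member was higher and 3 were lower in full concentration than in 1/5 (12% and 14.2% of all genes), 2 and 1 in 1/5 than in 1/25 (5.69% and 3.58%), and 2 and 3 in full concentration than in 1/25 (9.17% and 7.61%). At 24 h the same pairs also called 0 of 40 (0%, 0.00328% and 0.00328% of all genes). At an unadjusted p of 0.05, 14 members passed for full concentration against 1/5 (21.5% of all genes), 4 for 1/5 against 1/25 (6.67%) and 2 for full concentration against 1/25 (5.00%). For full concentration against 1/5 at 24 h, 20 members were called without the second array of 1/5 (28.5% of all genes) and 20 with the slide as a random block (32.0%). These arrays lie on separate slides, as do those of full concentration against 1/25 at 24 h and of 1/25 against both higher concentrations at 6 h, so for these pairs concentration and slide cannot be told apart. Full concentration was below 1/5 on every array for 6 members, of which Psma2 alone had no saturated spot, and above it for 0 (11.7% and 5.08% of all genes), and 1/5 was above 1/25 for 1 member, Psmd10, and below it for 1, Psmc3 (3.05% and 1.55%). In full concentration against 1/25 at 24 h, 10 members were lower on every array, where 11.2% of all genes were, 7 of them with a saturated spot, and 2 were higher (Psma5 and Psmd10; 6.18% of all genes). The F test over the 7 groups called 0 members and 0.692% of all genes, with 6 members at an unadjusted p of 0.05 (21.5% of all genes), and it called 6 without the second array of 1/5 at 24 h (14.7% of all genes), 1 without the second of 1/25 at 24 h (5.01%) and 21 with the slide as a random block (49.1%).

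How far the members lay from their untreated level differed between arrays of 1 group. Counting members more than 1 log2 unit from the untreated mean gave 0, 0 and 0 of 40 on the arrays of full concentration at 6 h, 0, 2 and 0 at 1/5, and 0, 3 and 1 at 1/25. At 24 h the counts were 2, 10 and 3 at full concentration, 14, 1 and 35 at 1/5, and 13, 0 and 11 at 1/25. Within 1/5 at 24 h the count thus ran from nearly no members to nearly all. Among all genes the shares at 24 h moved the same way: 9.91%, 28.5% and 14.1% at full concentration, 38.3%, 13.3% and 66.9% at 1/5, and 45.6%, 10.3% and 32.9% at 1/25. The 4 arrays with fewer than 80% of spots well above background had 3, 14, 35 and 13 members past this distance. Without those 4 arrays, a choice made after seeing the data, the median change at 1/5 for 24 h was 0.16 for all members, 0.11 for the alpha class, 0.19 for the ATPases and -0.01 for the non-ATPase genes. The part of RNA or labelling quality in these differences was not tested. Treatment and slide also overlap in part: no slide holds untreated cells together with a 24 h or a 1/25 group, so for those comparisons slide and group cannot be told apart. Untreated cells and 1/5 at 6 h share no slide either. They are linked only through full concentration at 6 h, which lies on the slides of both.

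**Figure D3:**
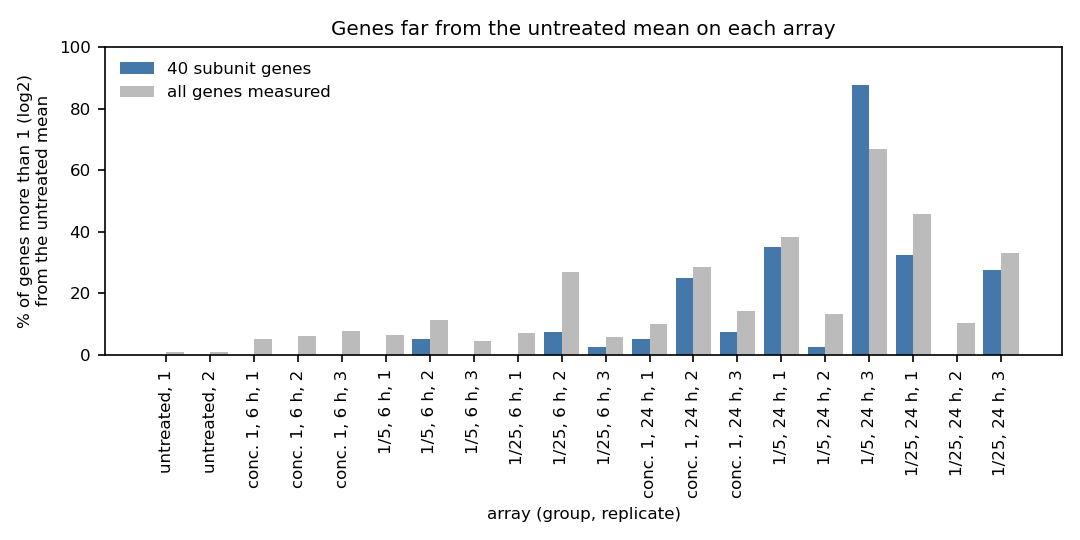
Percent of genes more than 1 log2 unit from the mean of the untreated arrays, on each array, for the 40 subunit genes and for all genes. The third array of 1/5 at 24 h is highest for both, at 35 of 40 members and 66.9% of all genes, and the second array of 1/25 at 24 h has 0 members there.

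Of the 40 members, 7 carry probes at more than 1 place along the gene, which allows the same transcript to be read at its upstream and downstream end; the comparison was added after the data were seen. The direction of transcription was taken from the order of the listed coordinates, which matched the strand in the reference annotation for 95.3% of 10632 genes. For 3379 genes with probes at different places, the downstream probe changed more upward than the upstream one in 36.8%, 54.2% and 62.6% of genes at 6 h (full concentration, 1/5 and 1/25) and in 62.8%, 63.0% and 66.6% at 24 h. The value for 1/25 at 6 h rests on the second array, with 69.0% against 48.7% and 47.7% on the others. The median difference over these genes was -0.13, 0.04 and 0.15 at 6 h and 0.22, 0.46 and 0.44 at 24 h. In each of the 7 members the downstream probe was the brightest, so it stands for the gene in the gene values and class medians. Of the 7 members, 5 have a downstream probe that was saturated on some arrays, so only Psmc4 and Psmc6 can be read at both ends without a ceiling.

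Psmc4, with no saturated spot at either probe, changed by -0.78 upstream and 1.08 downstream at 1/5 for 24 h. This split came from the third array, where the upstream probe was at -2.55 and the downstream probe at 2.58 relative to untreated cells. At 1/25 for 24 h the values were 0.12 and 0.56. Psmd2 and Psmd7 were chosen for description after their values were seen. The upstream probe of Psmd2 changed by -1.0, -1.55 and -1.69 at full concentration, 1/5 and 1/25 for 24 h, with -0.04, -2.14 and -0.81 on the arrays of full concentration, -2.24, -0.68 and -1.74 on those of 1/5, and -3.32, 0.85 and -2.60 on those of 1/25. The same arrays that had many members past 1 log2 unit were low here, and the downstream probe was saturated on 19 arrays and is given no fold. Psmd7 has 3 probes, the downstream one saturated on 4 of the 20 arrays, which at 1/5 for 24 h read -2.98, -0.51 and -4.01 upstream, -0.67, -0.10 and -3.57 in the middle, and -0.26, -0.01 and -1.85 downstream, relative to untreated cells. On each of these arrays the upstream probe of Psmd7 was the lowest. Psme4 was the exception among the 7 at 1/5 for 24 h, with -1.56 upstream and -1.68 downstream, and Psmc6 read nearly the same at both, 1.63 and 1.76. For Psmc4 the sign at 1/5 for 24 h thus differed between its probes. In a fit of all probes separately, 0 of the 48 member probes were called in any comparison of groups. With 1 probe per gene, at most 0.233% of all genes were called in these comparisons. The share of all probes called in the separate fit is not given here.

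**Figure D4:**
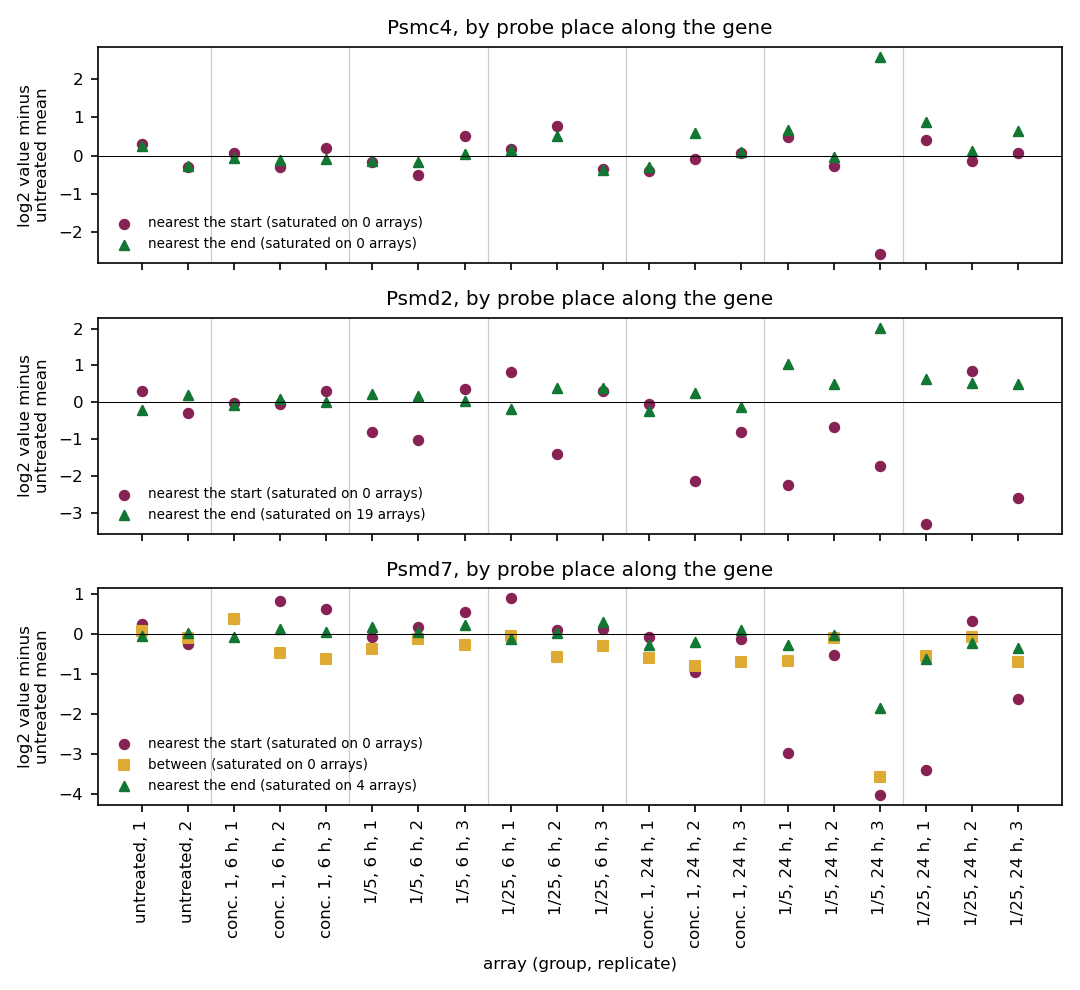
Log2 signal relative to the untreated mean on each array for the probes of Psmc4, Psmd2 and Psmd7, ordered from the upstream to the downstream end of the gene. On the third array of 1/5 at 24 h the Psmc4 probes are at -2.55 and 2.58; the downstream probe of Psmd2 is saturated on 19 arrays.

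The GC content of the members' probes was narrow. It ran from 35% to 55% with a median of 45%, and 21 of the 40 probes had exactly 45% GC, against 19.8% of all genes' probes, whose content ran from 15% to 88.3% with a median of 43.3%. Over all genes the change against untreated cells at 24 h was lower at higher GC content, with slopes of -0.15, -0.29 and -0.23 log2 units per 10 percentage points for full concentration, 1/5 and 1/25 (r = -0.18, -0.19 and -0.19 across 30509 genes, which share arrays and are not independent). Across the 40 members the slopes were -0.11, -0.35 and -0.02 (r = -0.09, -0.15 and -0.01). Taking off the line of all genes left the spread of the members at 1/5 for 24 h at 1.300 (SD), from 1.314. Psmd10 and Psmd13, the extremes at full concentration, have probes of the same GC content.

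**Figure D5:**
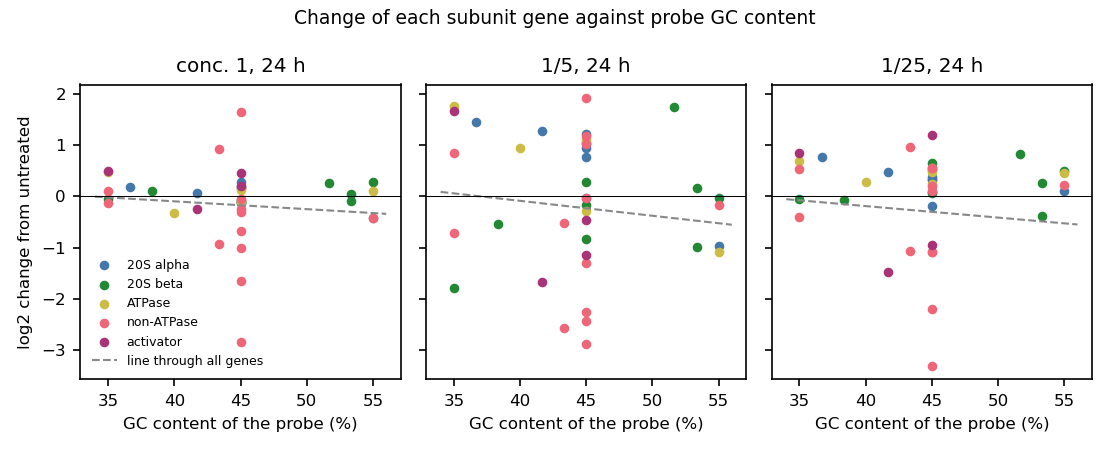
Log2 change against untreated cells of the 40 subunit genes against the GC percentage of their probes, for the 3 groups at 24 h, with the straight line through all genes. Members with 45% GC reach from the lowest to the highest changes, Psmd13 at -2.84 and Psmd10 at 1.65 at full concentration.

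Of the genes that work around the proteasome, 0 were called against untreated cells or over time (limma), where 0% to 0.233% of all genes were called. Of 26 genes for assembly and regulation, 21 were measured, with median changes of -0.02, -0.05 and 0.01 at 6 h and -0.11, 0.24 and 0.37 at 24 h. At 1/5 for 24 h they ran from -2.16 for Vcp, the segregase that extracts ubiquitylated proteins, to 1.76 for Ubqln1, a shuttle that carries them to the proteasome, and 8 of 21 passed an unadjusted p of 0.05, where 30.4% of all genes did. Nfe2l1 was the lowest of them at 1/25 for 24 h, at -1.39. The 12 genes for ubiquitin and its activation were all measured and had medians of 0.04, 0.17 and 0.08 at 6 h and -0.04, 1.14 and 0.44 at 24 h. At 1/5 and 1/25 for 24 h, 10 and 11 of the 12 were above their untreated level (46.1% and 44.8% of all genes), and 7 and 1 passed an unadjusted p of 0.05 (30.4% and 13.4% of all genes). Of 5 ubiquitin ligases of muscle, 4 were measured, with medians of 0.01, -0.27 and 0.14 at 6 h and 0.03, -1.02 and 0.05 at 24 h. Trim63, the ligase that marks contractile proteins in atrophy, was the highest at full concentration for 24 h, at 0.72. At 1/5 for 24 h it was the lowest, at -2.21. The opposite ends were Stub1 at -0.45 at full concentration and Mdm2 at 1.14 at 1/5.

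Levels of cell-type markers are given as the range over the arrays of a group. They are sums on the linear scale, led by the brightest markers and divided by each array's 75th percentile. That percentile was 3165 on the third array of 1/5 at 24 h, against 18096 and 15473 on the untreated arrays. The part of scaling and saturation in these sums was not tested. The summed level of the 11 cardiomyocyte markers was 4.21 to 4.46 on the untreated arrays, 3.84 to 4.44 at full concentration, 4.65 to 6.66 at 1/5 and 4.66 to 4.92 at 1/25 for 24 h. That of the 8 fibroblast markers was 3.89 to 4.15 untreated and 3.45 to 3.96, 4.07 to 6.37 and 4.10 to 4.40 at 24 h. For the 5 endothelial markers it was 1.25 to 1.33 untreated and 1.33 to 2.00, 2.02 to 3.36 and 1.38 to 2.68. For the 4 of 5 smooth muscle markers measured it was 1.90 to 2.13 untreated and 1.42 to 1.63, -0.29 to 1.78 and 1.18 to 2.11. The 6 leukocyte markers summed to 2.38 to 2.45 untreated and 1.97 to 2.56, 1.16 to 2.21 and 1.55 to 2.27, and the 4 of 6 erythroid markers measured to 0.02 to 0.16 untreated and -1.07 to -0.47, -1.39 to 0.46 and -0.67 to -0.05. The part of cell composition in the subunit values was not tested.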

How the data were processed

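Signals of 20 arrays were analysed. Per the file headers, spots were read with Agilent Feature Extraction 9.5.3.1, and the authors deposited the processed signal, an intensity on a linear scale after background subtraction. The deposited series table gives a ratio: processed signal divided by the array median and by the mean of the untreated arrays (99.8% of 819473 values within 0.05 log2 units). Control spots and flagged outliers were left out, and log2 intensity minus each array's 75th percentile was used. Of 41012 probes 35073 were kept, and the brightest probe stood for each of 30509 genes. limma 3.58.1 (R 4.3.3) fitted all 7 groups, with Benjamini-Hochberg adjustment over all genes. The scripts were tested on simulated data. Spots not well above background or saturated were kept.

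Groups came from the sample titles. The members, gene lists and tests were chosen with earlier results of these data known. Named array by array were the catalytic beta genes, the member with the smallest F-test p in each class, and the largest rise and fall at full concentration. Alternatives covered the normalization, background correction, filters, GC content, replicate and slide blocks, array weights and single arrays left out. Precision is limited by 2 or 3 arrays per group. Sequences and positions are those of the array files.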

Additional observations from a re-analysis of the deposited data

How the results depend on the processing

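The results were recomputed under 19 other settings and with each of the 20 arrays left out in turn. With no member called as reported, no call could reverse. Over all settings and arrays left out, 55 of 373 medians over all members changed sign, each with a reported size of at most 0.11, and 101 of 675 medians over a class did, among them the ATPases at 1/5 for 24 h with quantile normalization. Under the other settings 276 counts of called members kept their value and 15 moved, and 243 medians stayed within the spread between arrays (SD 0.170) and 34 did not. The cause of these moves was not tested. Few arrays and the low signal of some of them limit the precision. Percentages beside counts of called members are the share of all genes called in the same fit.

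With quantile normalization the members' median was 0.071 for 1/25 at 24 h against untreated cells and 0.055 against 6 h, and 0.15 and -0.070 for full concentration at 24 h against 1/5 and 1/25. With normexp, 1/5 against 1/25 at 24 h gave 0.10. The authors' deposited ratios, scaled to each array's median, gave 0.15, 0.48 and 0.77 at 24 h against untreated cells for full concentration, 1/5 and 1/25, where the medians of all genes shifted up by 0.21, 0.52 and 0.50; the members minus all genes stayed at 0.04, 0.08 and 0.41. They gave 0.37, 0.50 and 0.59 for 24 h against 6 h, -0.26 and -0.36 for full concentration against 1/5 and 1/25 at 6 h, and -0.42 and -0.62 at 24 h. With the 33 members well above background on every array, 1/5 at 24 h gave 0.27 against untreated cells, 0.29 against 6 h and 0.18 against 1/25. Without probes saturated on any array, 1/5 at 24 h gave -0.37 and -0.23, 1/25 gave 0.10, and full concentration against 1/5 gave 0.27. A GC correction gave 0.21 and 0.22 for 1/5 at 24 h against untreated cells and 6 h. With all kept probes, full concentration against 1/5 at 24 h gave 0.078.

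With the slide as a random block (consensus correlation -0.168), 17 members were called for 1/5 at 24 h against untreated cells (34.4%), 25 against 6 h (46.0%), 20 for full concentration against 1/5 at 24 h (32.0%) and 21 in the F test (49.1%). With the slide as a fixed block, 1/5 against 1/25 at 24 h gave a median of 0.10. Array weights, whose estimation did not converge, called 13 members (29.7%) for full concentration and 29 (66.2%) for 1/25 at 24 h against untreated cells, 17 (60.7%) and 34 (72.8%) against 6 h, 1 (28.2%) for full concentration against 1/5 and 5 (18.1%) for 1/5 against 1/25 at 6 h, 40 (90.8%) for full concentration against 1/25 at 24 h, 23 (51.3%) in the interaction and 37 (86.0%) in the F test. Their medians were 0.22 for 1/5 and 0.47 for 1/25 between 24 h and 6 h, and -0.35 for the interaction. A fit of only the groups compared called 3 members for full concentration between 24 h and 6 h (8.28%). Without the array of lowest signal, 1/5 at 24 h gave 0.29 and 0.30 against untreated cells and 6 h. Without the 4 arrays under 80%, a setting added after seeing the data, it gave 0.16 against untreated cells, and 1 member was called for full concentration between 24 h and 6 h (8.16%).

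The replicate numbers did not pair the arrays: same-numbered arrays of different groups had a median correlation of -0.04, from -0.765 to 0.638, over 57 pairs. With the replicate number as a block, 0 members were called in each comparison, as without it, and the median for 1/5 at 24 h against untreated cells was -0.02. Without the block at most 0.233% of all genes were called between groups, and the share with it is not given here. The block together with the GC correction gave 0.25 there and 0.22 against 6 h.

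With single arrays left out, called members ranged from 0 to 22 for 1/5 and 0 to 1 for 1/25 at 24 h against untreated cells, 0 to 26 for 1/5 between 24 h and 6 h, 0 to 20 for full concentration against 1/5 at 24 h, and 0 to 6 in the F test. Calls appeared only without the second array of 1/5 or of 1/25 at 24 h. The median for 1/5 at 24 h ranged from -0.24 to 0.29 against untreated cells, from -0.13 to 0.30 against 6 h and from -0.27 to 0.10 against 1/25.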
